A study of Homo sapiens with 10 samples.

Results

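The genes described here encode 10 proteins that fold other proteins in the endoplasmic reticulum (ER): the chaperones HSPA5 and HSP90B1, the HSPA5-associated protein SDF2L1, the lectin chaperones CALR and CANX, the glucosidase subunit PRKCSH, and the disulfide isomerases P4HB, PDIA3, PDIA4 and PDIA6. They are 10 of the 19821 protein-coding genes analysed. Peaks of 4 deposited lists were assigned to them from RefSeq positions on GRCh38, at either gene end (within 1 kb) and in the body. The genes share a function and were selected on it with the POLR1A peaks of these same data in view, so the presence of POLR1A on its genes is a description and carries no test. All samples were HCT116 cells labelled WT, with no treatment given in the labels. HCT116 is an established line from a human colorectal carcinoma. CUT&Tag, in which an antibody directs a transposase to cut and tag nearby DNA, was made for POLR1A (3 samples), POLR2A (3 samples), H3K4me3 (1 sample) and H3K9me3 (3 samples), from 100000 to 200000 cells per replicate. POLR1A is the catalytic subunit of RNA polymerase I and POLR2A that of RNA polymerase II, H3K4me3 marks active promoters, and H3K9me3 marks heterochromatin. Replicates were made on different days, per the labels, but each target has 1 peak list. No value therefore has a replicate error, and read depth is unknown.

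Proteins that enter the secretory pathway fold in the ER lumen. HSPA5, also called BiP, holds unfolded chains, and HSP90B1, also called GRP94, acts on a later set of clients. Sugar-bearing chains pass through the calnexin and calreticulin cycle, in which glucosidase II, with PRKCSH as its regulatory subunit, trims glucose and CALR and CANX bind the trimmed glycan. Protein disulfide isomerases form and rearrange disulfide bonds. When unfolded protein accumulates, the factor ATF6 is cleaved and, together with NF-Y, binds the ER stress response element (ERSE) in promoters of such genes.

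The ERSE letters were searched on both strands of the RefSeq promoter entries, which run from 250 bases before to 50 after a listed transcription start. The motif, CCAAT followed after any 9 bases by CCACG, was found in the promoters of 5 of the 9 folding genes with an entry (HSPA5, HSP90B1, CALR, CANX and PDIA6), against 0.0916% of 27305 genes in the table. HSP90B1 had 2 copies. The related ERSE-II, ATTGG followed after any 1 base by CCACG, whose first 5 bases are a CCAAT box on the other strand, was found in SDF2L1, against 0.0696% of genes in the table. PDIA4, P4HB and PRKCSH held neither in these windows, and PDIA3 had no entry. The letters TGACGTGG, a site of the ER stress factor XBP1, were in none of the 9 genes, against 0.927% of genes in the table. These are matches of letters, not measured binding. ERSE is an element known from promoters of such genes, so its share among them is a description and no test. The 6 promoters with a match are shown so that the motifs can be set against the peaks. They are, on GRCh38.p14, chr9:125241294-125241593 on the minus strand for HSPA5, chr12:103930160-103930459 on the plus strand for HSP90B1, chr19:12938359-12938658 on the plus strand for CALR, chr22:21642052-21642351 on the plus strand for SDF2L1, chr2:10812736-10813035 on the minus strand for PDIA6 and chr5:179698679-179698978 on the plus strand for CANX. Each is written 5′ to 3′ on the strand of its gene, with ERSE or, in SDF2L1, ERSE-II in capitals.
HSPA5: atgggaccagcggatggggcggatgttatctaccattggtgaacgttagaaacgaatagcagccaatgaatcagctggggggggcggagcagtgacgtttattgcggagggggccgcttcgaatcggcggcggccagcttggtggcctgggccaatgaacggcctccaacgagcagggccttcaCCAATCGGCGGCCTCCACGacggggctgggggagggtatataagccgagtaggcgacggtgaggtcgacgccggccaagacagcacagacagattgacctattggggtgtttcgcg
HSP90B1: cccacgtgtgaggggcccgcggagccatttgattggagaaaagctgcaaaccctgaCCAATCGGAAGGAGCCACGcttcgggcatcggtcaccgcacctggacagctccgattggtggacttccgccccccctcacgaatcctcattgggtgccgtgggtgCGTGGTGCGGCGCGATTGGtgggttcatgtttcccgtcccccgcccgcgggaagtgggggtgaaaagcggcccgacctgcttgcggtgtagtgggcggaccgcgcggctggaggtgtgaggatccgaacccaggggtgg
CALR: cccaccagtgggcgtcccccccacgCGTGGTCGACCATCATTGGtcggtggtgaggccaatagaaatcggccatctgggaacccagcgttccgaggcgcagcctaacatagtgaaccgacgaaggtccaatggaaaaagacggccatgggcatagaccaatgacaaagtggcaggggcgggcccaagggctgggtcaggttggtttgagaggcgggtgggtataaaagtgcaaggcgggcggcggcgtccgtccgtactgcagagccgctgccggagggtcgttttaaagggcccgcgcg
SDF2L1: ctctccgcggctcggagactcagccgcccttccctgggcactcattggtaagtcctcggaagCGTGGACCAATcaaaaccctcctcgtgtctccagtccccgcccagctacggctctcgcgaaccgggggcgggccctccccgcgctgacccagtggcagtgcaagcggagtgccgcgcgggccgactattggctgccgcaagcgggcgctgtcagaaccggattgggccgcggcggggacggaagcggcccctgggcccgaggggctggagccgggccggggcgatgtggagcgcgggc
PDIA6: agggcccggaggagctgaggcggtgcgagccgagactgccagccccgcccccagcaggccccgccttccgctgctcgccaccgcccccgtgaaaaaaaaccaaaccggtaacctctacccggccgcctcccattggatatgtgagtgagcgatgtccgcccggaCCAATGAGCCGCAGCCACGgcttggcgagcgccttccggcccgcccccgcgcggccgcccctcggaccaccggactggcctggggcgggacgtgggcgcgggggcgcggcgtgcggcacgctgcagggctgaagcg
CANX: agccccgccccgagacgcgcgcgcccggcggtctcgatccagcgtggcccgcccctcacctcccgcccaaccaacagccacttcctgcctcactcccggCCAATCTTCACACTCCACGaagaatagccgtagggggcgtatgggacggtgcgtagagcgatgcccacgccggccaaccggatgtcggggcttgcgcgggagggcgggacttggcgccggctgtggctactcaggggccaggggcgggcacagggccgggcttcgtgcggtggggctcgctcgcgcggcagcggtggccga

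A POLR1A peak lay over the first 4 of these promoters and not over the last 2. In the file coordinates the ERSE of HSPA5 spans 125241391 to 125241409, and its centre lay 16 bp from the POLR1A summit and 13 bp from the POLR2A summit. At CALR those distances were 70 and 69 bp, and at SDF2L1 the centre of ERSE-II lay 72 bp from the POLR1A summit and 40 bp from the POLR2A summit. At HSP90B1 the upstream copy lay 90 bp from the POLR1A summit and 36 bp from the POLR2A summit, and the downstream copy 195 and 69 bp away. At PDIA6 the centre was 37 bp from the POLR2A summit. Other boxes lay nearer the POLR1A summit at CALR (CCAAT, 24 bp), SDF2L1 (GGGCGG, 30.5 bp) and HSP90B1 (CCAAT, 58 bp). At PDIA6 a CCAAT box outside ERSE lay 3 bp from the POLR2A summit, while at HSPA5 no other box was nearer than ERSE. Over all genes with a peak at a listed start, median summits lay 131 bp (POLR1A) and 89 bp (POLR2A) upstream, within the searched windows. Of the folding genes, only HSPA5 (73 bp) and CALR (146 bp) had the POLR1A summit within them. The POLR1A summits of SDF2L1 (255 bp), PRKCSH (273 bp), HSP90B1 (275 bp), PDIA4 (294 bp) and P4HB (388 bp) lay upstream of them. So did the POLR2A summits of P4HB (333 bp) and PRKCSH (347 bp). The entries of these genes do not reach those summits, so distances from them to boxes cover only the side towards the start. Closeness of the summits to ERSE was not tested. At least 1 CCAAT box was present in a promoter entry of all 9 genes, against 39.7% of genes in the table. A gene counted if any of its entries held the letters. The 9 genes had 16 entries, and the 27305 genes in the table had 35116. In genes with ERSE or ERSE-II those letters contain the box, so its presence there follows from them. PRKCSH held it only in the entry of the start 11436073, 463 bp or more from the POLR1A summit. The GC box letters GGGCGG were likewise in all 9 genes, against 48.3%. TATAAA was found in P4HB and CALR, against 14.0% of genes. The 16 entries of the folding genes had a median GC content of 64.3%, against 58.7% over all 35116 entries, and a median of 27 CpG dinucleotides, against 14. Several entries of CANX and of PRKCSH overlap each other, so the 16 are not separate promoters.

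The cell line was checked against marker genes. H3K4me3 was at the ends of 8 of 10 intestinal epithelial marker genes (EPCAM, CDH1, KRT8, KRT18, CDX2, SOX9, CLDN4 and HNF4A, but neither VIL1 nor CLDN7), 0 of 6 leukocyte markers and 1 of 6 fibroblast markers (COL1A1). Over all protein-coding genes H3K4me3 was at the ends of 54.6%. The exact interval of the epithelial share, 44.4 to 97.5%, includes that value, so this share alone does not set these markers apart. POLR2A was at 7 of 10 epithelial, 1 of 6 leukocyte (CD14) and 0 of 6 fibroblast markers, against 41.3% of all genes. POLR1A was at none of these 22 genes, against 11.2% of all genes, with an interval reaching 30.8% for the 10 epithelial markers. The lists held 3812 POLR1A peaks, 19997 POLR2A peaks, 17181 H3K4me3 peaks and 16414 H3K9me3 peaks on chromosomes 1 to 22 and X. Fold enrichment, the linear ratio of a peak over its background as the authors deposited it, is compared here only within a list. A percentile gives the share of peaks of the same list that are weaker.

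POLR1A occupied an end of 7 of the 10 genes (70.0%, exact 95% interval 34.8 to 93.3), against 11.2% of all protein-coding genes. The 7 were PRKCSH, P4HB, PDIA4, CALR, HSPA5, HSP90B1 and SDF2L1. POLR2A was at the ends of 9 (90.0%, interval 55.5 to 99.7), against 41.3% of all genes, and H3K4me3 likewise at 9, against 54.6%. H3K9me3 was at the ends of 0 of 10, against 2.70%, with an interval reaching 30.8%, so a share below that could not have been told apart from none with 10 genes. Intervals cover counting error only and not the selection of the genes with POLR1A in view, so they are no test. The gene without an end peak was PDIA6, whose peaks lay inside its annotated span. Counted from 1 kb before to 1 kb after the whole gene, POLR1A was at 7, against 15.4% of all genes, POLR2A at all 10, against 53.2%, H3K4me3 at all 10, against 60.5%, and H3K9me3 at 0, against 14.4%. The nearest H3K9me3 peaks were 3.77 kb beyond PDIA6, 9.56 kb beyond PDIA4 and 13.7 kb beyond PRKCSH, and the others lay between 44.7 kb (CALR) and 570.3 kb (SDF2L1) away.

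The 7 genes with POLR1A all carried POLR2A and H3K4me3 as well, without H3K9me3, as did 86.4% of the 2213 protein-coding genes with POLR1A (9.65% of all genes). CANX and PDIA3 had POLR2A and H3K4me3 without POLR1A, as did 28.6% of genes. A POLR1A peak overlapped a POLR2A peak at the same end in all 7, against 93.9% of genes with POLR1A (10.5% of all genes). Both counts are near the shares for any gene with POLR1A.

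**Figure D1:**
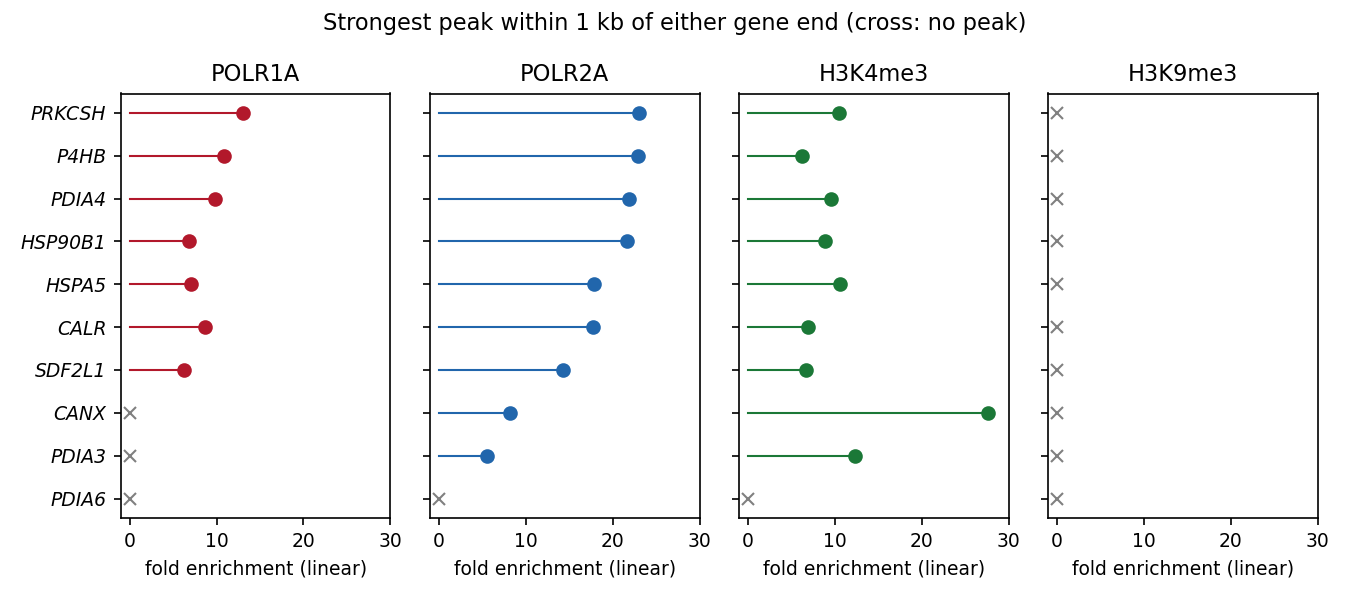
Fold enrichment (linear, x axis) of the strongest peak within 1 kb of either end of each ER folding gene, in 1 panel per target, with a cross where there was no peak. PRKCSH leads for POLR1A (13.0), PRKCSH and P4HB for POLR2A (23.0 each), CANX leads for H3K4me3 (27.6), and the H3K9me3 panel holds no peak.

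Among the genes of the lectin cycle, PRKCSH on chromosome 19 (gene 11435635 to 11450968) had the strongest POLR1A peak of the group. That peak, at 11435239 to 11435551, had a POLR1A fold enrichment of 13.0, rank 94 of 3812 (percentile 97.5). The POLR2A peak at 11435205 to 11435575 had a fold enrichment of 23.0, rank 92 of 19997 (percentile 99.5). H3K4me3 spanned 11434931 to 11436563 with a fold enrichment of 10.4, percentile 61.1. Both polymerase values were thus near the top of their lists while the histone mark was near the middle of its own. ODAD3, a ciliary gene on the opposite strand, has a listed start 241 bp from the POLR1A summit, which lay 273 bp upstream of PRKCSH, so the peak cannot be assigned to either gene. A weak POLR2A peak in the body of PRKCSH had a fold enrichment of 4.58.

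CALR, on chromosome 19 (gene 12938609 to 12944489), encodes the soluble lectin chaperone calreticulin. Its POLR1A peak at 12938311 to 12938586 had a fold enrichment of 8.73 (percentile 88.5), and its POLR2A peak at 12938294 to 12938649 had 17.8 (percentile 97.3). The POLR1A and POLR2A summits were 1 bp apart, 146 and 147 bp upstream of the start. H3K4me3 at CALR was 6.88, percentile 32.5, in a peak of 1541 bp. No listed start of another gene lay within 1 kb of the polymerase summits.

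CANX, on chromosome 5 (gene 179678656 to 179731641), encodes the membrane-bound lectin chaperone calnexin and differed from CALR. It had no POLR1A peak, and the nearest one was 926.8 kb away. The annotated span of CANX begins far before the 4 starts in the promoter table (179698427 to 179698967), and the H3K4me3 summit at that outer end lay 19893 bp before the nearest of them. There POLR2A had a fold enrichment of 8.16 (percentile 72.1) and H3K4me3 27.6, rank 21 of 17181. The POLR2A summit there lay 29 bp from an end of the neighbouring gene CBY3. At the listed starts themselves there was no POLR2A peak, while a pair of H3K4me3 peaks had fold enrichments of 16.7 and 12.3. The promoter printed above for CANX is thus one with ERSE letters and H3K4me3 but without a polymerase peak in the lists.

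Of the disulfide isomerases, P4HB, which is also the beta subunit of collagen prolyl 4-hydroxylase, lies on chromosome 17 (gene 81843166 to 81860535). Its POLR1A peak at 81860684 to 81860990 had a fold enrichment of 10.8 (percentile 94.8), and its POLR2A peak at 81860632 to 81861183 had 23.0 (percentile 99.5). H3K4me3 was split into 2 peaks on either side of the start, from 81859611 to 81860401 (5.56) and from 81860679 to 81862022 (6.25), percentiles 21.2 and 27.5. The polymerase summits were 388 bp (POLR1A) and 333 bp (POLR2A) upstream of the start. The non-coding gene LOC124904086 starts on the opposite strand 187 bp from the POLR1A summit, so this site too is shared. A further H3K4me3 peak in the body was weak, at 3.38.

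PDIA4, encoding ERp72, lies on chromosome 7 (gene 149003051 to 149028505). The POLR1A peak at 149028579 to 149028932 had a fold enrichment of 9.83 (percentile 92.7), and the POLR2A peak at 149028553 to 149028971 had 21.9 (percentile 99.4, rank 128). H3K4me3 was 9.62, percentile 54.8. No listed start of another gene lay within 1 kb of its summits. The POLR1A peak lay wholly inside the POLR2A peak, with summits 76 bp apart.

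PDIA3 and PDIA6 lacked POLR1A. PDIA3, encoding ERp57, the isomerase that works with calnexin and calreticulin, lies on chromosome 15 (gene 43746438 to 43773278). Its POLR2A peak at 43746291 to 43746498 had a fold enrichment of 5.54 (percentile 50.7) and a −log10 q of 4.58, the weakest POLR2A peak at an end among the genes when each is taken by its strongest. H3K4me3 there was 12.3 (percentile 74.9). The POLR2A summit lay 105 bp from an end of the pseudogene CATSPER2P1. The nearest POLR1A peak (5.03) began 3315 bp beyond the other end of PDIA3, over an end of the neighbouring gene ELL3. PDIA6, encoding P5, lies on chromosome 2 (gene 10783391 to 10837712). Neither annotated end had a peak of any list. At the inner listed start, 10812785, POLR2A at 10812743 to 10812924 had a fold enrichment of 10.3 (percentile 82.6), an H3K4me3 peak over the same start had 4.40, and one downstream of it had 9.02. No POLR1A peak lay within 264.9 kb of the gene.

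Of the chaperones, HSPA5 lies on chromosome 9 (gene 125234853 to 125241343). Its POLR1A peak at 125241329 to 125241839 had a fold enrichment of 7.01, percentile 75.0 and rank 950, and its POLR2A peak at 125241120 to 125241702 had 17.9, percentile 97.4 and rank 520. The summits were 3 bp apart. The divergent transcript HSPA5-DT starts 240 bp from the POLR1A summit, and the summits of both polymerases lay between the starts, 73 bp (POLR1A) and 70 bp (POLR2A) upstream of HSPA5. H3K4me3 was 10.6 (percentile 62.8) with a −log10 q of 238.7. A second POLR2A peak, at the far end of the gene, was weak (4.14).

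HSP90B1, on chromosome 12 (gene 103930410 to 103947926), combined a strong POLR2A peak with a middling POLR1A peak. POLR1A at 103930131 to 103930365 had a fold enrichment of 6.85 (percentile 72.8), and POLR2A at 103929722 to 103930461 had 21.6 (percentile 99.3). The summits were 126 bp apart, the widest gap among the 7 genes, and the POLR1A summit lay 4 bp from the left edge of its peak. H3K4me3 was 8.92 (percentile 49.1) in a peak of 2215 bp, wider than 99.1% of the list. One end of the pseudogene TTC41P lay 76 bp from the POLR1A summit.

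SDF2L1, on chromosome 22 (gene 21642302 to 21644299), encodes a component of HSPA5 complexes. It had the weakest POLR1A peak of the 7, at 21641872 to 21642211, with a fold enrichment of 6.26 (percentile 64.3). Its −log10 q of 4.99 was the lowest of the 7. POLR2A was 14.3 (percentile 92.8), in a peak with the same left edge, 21641872. H3K4me3 was 6.72 (percentile 31.4) in a peak of 2032 bp.

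Across the group the polymerase peaks stood higher in their lists than the H3K4me3 peaks in theirs. The strongest end peak had a median percentile of 88.5 for POLR1A (7 genes, 64.3 to 97.5), 97.4 for POLR2A (9 genes, 50.7 to 99.5) and 54.8 for H3K4me3 (9 genes, 27.5 to 99.9). Ranked by −log10 q in place of fold enrichment, the H3K4me3 median was 78.4. Median fold enrichments were 8.73 for POLR1A, against 6.08 over all genes with a POLR1A peak, 17.9 for POLR2A, against 8.87, and 9.62 for H3K4me3, against 11.05. The H3K4me3 peaks were wide instead. The widest H3K4me3 peak at an end had a median of 1541 bp in the 9 folding genes, against 1108 bp over 10832 genes, and CANX alone of the 9 was below that, with 863 bp.

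With strand taken from the promoter table, the peaks were assigned to gene starts. Of the 9 folding genes with a strand, 7 had POLR1A at the start, against 12.4% of 15813 genes, 9 had POLR2A, against 44.9%, 9 had H3K4me3, against 59.4%, and 0 had H3K9me3, against 2.49%. The start of CANX counts here through its outer annotated end. No POLR1A peak lay at a far end or in the body of any folding gene. All 7 POLR1A summits lay upstream of the nearest listed start, by 73 to 388 bp with a median of 273 bp. Of all genes with POLR1A at a listed start, 78.0% had the summit upstream, with a median of 131 bp. All 8 POLR2A summits near a listed start were also upstream, by 70 to 347 bp (median 148 bp), against 78.1% of genes with POLR2A. H3K4me3 summits lay upstream in 4 of 9 folding genes, against 31.5%. An upstream summit was thus the more frequent case for both polymerases over all genes as well.

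**Figure D2:**
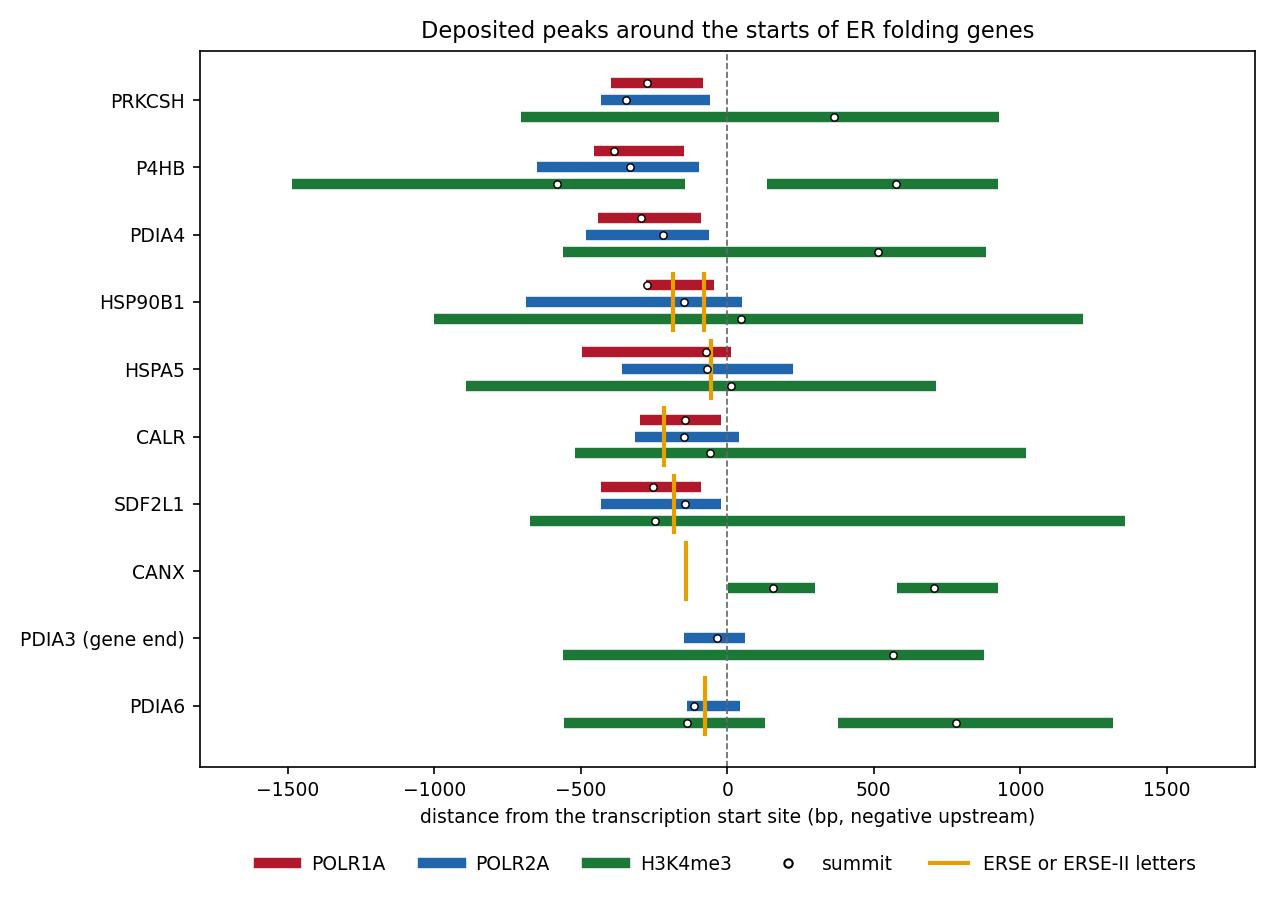
Peaks of POLR1A, POLR2A and H3K4me3 (bars) with their summits (white points) by distance from the start of each ER folding gene in bp, negative upstream, with ERSE or ERSE-II letters as orange lines. PDIA3, which has no listed start, is set at its low-coordinate gene end, and CANX at 1 of its 4 listed starts. The 7 POLR1A summits lie 73 to 388 bp upstream, each within the span of the POLR2A peak.

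The POLR1A and POLR2A summits of the 7 genes were 1 to 126 bp apart, with a median of 74 bp, against a median of 64 bp over the 2126 protein-coding genes with both. In 6 of the 7 the POLR1A peak lay wholly within the POLR2A peak, against 64.9% of the 2126 genes. At HSPA5 73.2% of it did. Over the 7 genes the fold enrichments of POLR1A and POLR2A had a Spearman rho of 0.86 and a Pearson r of 0.73. Over all 2126 genes rho was 0.58 and r was 0.59. These are correlations across genes of the same libraries, given as a description.

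The strength of POLR2A moved with the presence of POLR1A. The 7 genes with POLR1A had POLR2A values from 14.3 to 23.0, and the 2 with POLR2A at an end and no POLR1A had 5.54 (PDIA3) and 8.16 (CANX), without overlap. Of all protein-coding genes with a POLR2A value in the range of the 7, 60.4% had POLR1A (844 of 1397), and of those in the range of the other 2 genes 11.4% had it. Among all genes with POLR2A the share with POLR1A was 26.0%, and among those with POLR2A and H3K4me3 26.8%. With those genes in 10 groups of equal size by POLR2A value, 6 of the 7 (all but SDF2L1) fell in the strongest group, where 64.5% of 820 genes had POLR1A, and SDF2L1 in the group next to it, where 53.2% did. CANX fell in group 5 (15.4%) and PDIA3 in group 2 (5.25%). The CANX value is that of its outer end, 29 bp from an end of CBY3, and its listed starts had no POLR2A peak. PDIA6, which also lacked POLR1A, had no end peak and is in no group. Its POLR2A peak at a listed start had a fold enrichment of 10.3. The part of POLR2A strength in the presence of POLR1A on the folding genes was not tested.

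**Figure D3:**
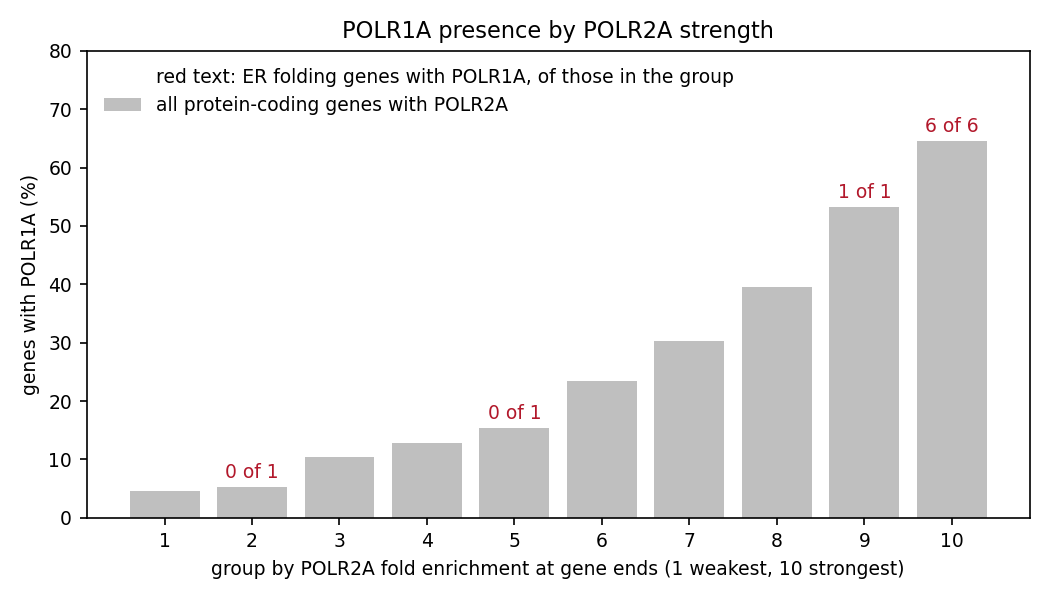
Share of protein-coding genes with POLR1A at an end (y axis, %) in 10 groups of equal size by POLR2A fold enrichment at their ends (x axis), with the count of ER folding genes in red above the bars. The share is 4.51% in group 1 and 64.5% in group 10, which holds 6 folding genes, all with POLR1A.

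Further genes of ER protein folding and quality control, 112 in 7 lists, gave the wider setting. POLR1A was at the ends of 26 (23.2%, interval 15.8 to 32.1), against 11.2% of all genes, POLR2A at 84 (75.0%) and H3K9me3 at 5 (4.46%), against 2.70% of all genes. Of the 84 with POLR2A, 25 had POLR1A (29.8%, interval 20.3 to 40.7), against 26.0% of all genes with POLR2A, a share near that background. Their median POLR2A value was 11.5, against 17.9 in the folding genes. The difference between the folding genes and these lists was not tested, since the folding genes were selected with their POLR1A peaks in view.

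By list, genes of glycan trimming and lectin transport had POLR1A in 4 of 9 cases (44.4%), against 11.2% of all protein-coding genes. MLEC, the ER lectin malectin, had a POLR1A fold enrichment of 7.99. SELENOF, which associates with the glycoprotein sensor UGGT1, had 6.65 and the cargo receptor LMAN1 5.74. The mannosidase gene MAN1B1 had POLR2A at 18.5 and no POLR1A. Other disulfide isomerases and thiol oxidases had POLR1A in 2 of 19 (10.5%), near the share of all genes. These were ERP29 (8.13) and ERP44 (5.93), while TMX2 and TXNDC11 had POLR2A at 17.5 and 17.2 without POLR1A. Cofactors of the ER chaperones had POLR1A in 2 of 13 (15.4%), CNPY2 (8.30) and the HSPA5 co-chaperone DNAJB9 (3.70). DNAJB11, the co-chaperone that forms a complex with SDF2L1, had POLR2A at 18.8 and no POLR1A, a stronger POLR2A peak than that of SDF2L1 itself. Prolyl isomerases and hydroxylase subunits had POLR1A in 2 of 12 (16.7%), FKBP2 (6.64) and P4HA1 (5.96), the catalytic partner of P4HB. The cyclophilin gene PPIB had POLR2A at 14.4 without POLR1A. Apart from that of the glycan trimming list, which begins at 13.7%, the intervals of these lists include 11.2%. None of these shares was tested.

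Sensors and effectors of the unfolded protein response had POLR1A in 4 of 17 (23.5%), against the same 11.2% of all genes. EIF2AK3, the sensor kinase PERK, was at 8.39, NFYA, a subunit of NF-Y, at 7.51 and the stress factor DDIT3 at 6.74. EIF2AK3 and DDIT3 also had H3K9me3 at an end, at 4.40 and 3.88, as had SELENOF (5.60) and CNPY2 (3.96) of the lists above. The sensor ERN1 and the protease MBTPS1, which cleaves ATF6, had POLR2A at 15.7 and 16.2 without POLR1A. ER-associated degradation genes had POLR1A in 6 of 18 (33.3%), with SEL1L at 6.42 and EDEM3 and UFD1 at 6.12 each. Translocon and oligosaccharyltransferase genes had it in 6 of 24, with the catalytic subunits STT3A at 9.11 and STT3B at 6.46 and the signal peptidase SEC11C at 8.27. Other HSP70 and HSP90 chaperones, most of them outside the ER, had POLR1A in 7 of 13 (53.8%). HSPA13, a microsome-associated HSP70, was at 9.94, the cytosolic HSP90AA1 at 7.01 and HSPA14 at 6.70. CCT chaperonin genes had POLR1A in 4 of 9 (44.4%), with CCT3 at 9.22 and CCT6A at 6.88. The intervals of the unfolded protein response and translocon lists include 11.2%, and those of the other lists in this paragraph lie above it. These shares were not tested either.

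**Figure D4:**
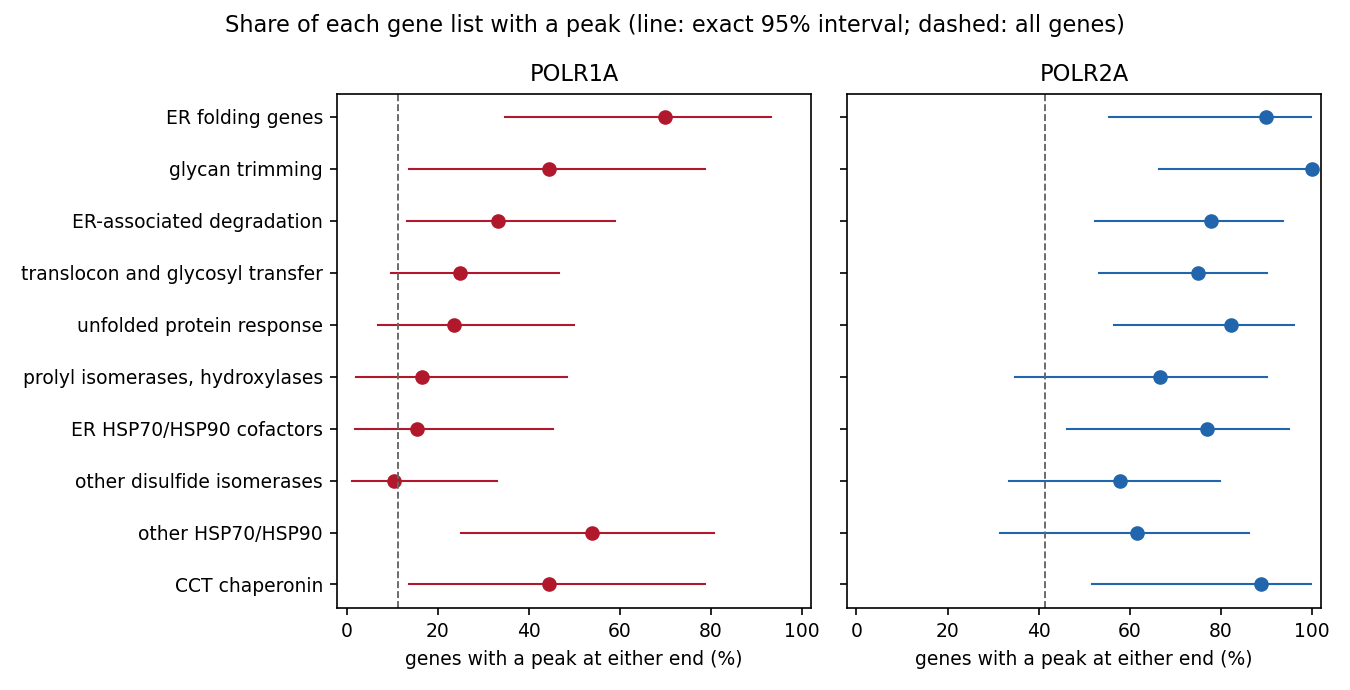
Share of genes with a peak at either end (x axis, %) for POLR1A and POLR2A in the ER folding genes and 9 further lists, with exact 95% intervals and a dashed line at the share of all protein-coding genes (11.2% and 41.3%). The folding genes have the highest POLR1A share, 70.0%, and were chosen with it known.

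The ERSE letters themselves did not go with POLR1A on every gene. Of the 21 protein-coding genes with ERSE in a listed promoter, 5 had POLR1A (23.8%), against 11.8% of those without the letters. The 5 were HSPA5, HSP90B1 and CALR, which are folding genes selected with POLR1A known, and SERP1, which encodes a stress-associated ER protein, and EIF2A, which share a POLR1A value of 7.39 and a POLR2A value of 16.9. With the folding genes left out, 2 of 16 genes with ERSE had POLR1A (12.5%), a share near the 11.8% of genes without it. These 2, SERP1 and EIF2A, have the same values and cannot be counted as separate sites, so no conclusion was drawn from the share. POLR2A was at 61.9% of the 21 genes with ERSE, against 43.5% of those without. With the folding genes left out it was at 9 of 16 genes (56.25%), against 43.5%. Among these 9, SERP1 and EIF2A have the same POLR2A value, as do ALG12 and CRELD2 (7.69). The 9 genes thus cannot be counted as separate sites, and no conclusion was drawn from this share either. XBP1, an ER stress transcription factor whose promoter holds ERSE, had POLR2A at 13.5 and no POLR1A, and CRELD2 had POLR2A at 7.69 and no POLR1A. A CCAAT box, within ERSE or not, was held by promoters of 6657 protein-coding genes, of which 15.6% had POLR1A, against 9.15% of the 9156 without it. The same genes had POLR2A in 47.5% and 40.7% of cases, so POLR2A moved with the box as well, and its part was not tested.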

How the data were processed

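The data were 4 peak lists in narrowPeak format, 1 per target. Peak names inside them name MACS2, and their prefixes were matched to the antibody labels. The fold of each peak is a linear ratio, and it and −log10 q are the authors' deposited values. The deposited integer score per peak was not used. No list names a replicate except that of H3K4me3 (1 sample), and control, pooling and depth were not given in the sources used here. STAR, SAMtools 1.6, deepTools 3.1.1 and the builds GRCh38 and hg38 stand in the submitters' processing notes, without roles.

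Peaks on chromosomes 1 to 22 and X were used. Gene spans came from a RefSeq table (GRCh38.p14), leaving out 679 genes on scaffolds or patches, and strand and starts from RefSeq promoter entries for 15813 of 19821 protein-coding genes. A peak counted if 1 base lay within 1 kb of a gene end. Assignment and motif search were tested on simulated peaks and sequences. Python 3.11.15, pandas 2.3.3 and scipy 1.17.1 were used. The folding genes and lists were chosen with earlier results of these data known. All folding genes were named, and of other lists up to 3 genes by POLR1A value and up to 2 by POLR2A value without POLR1A.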

Additional observations from a re-analysis of the deposited data

How the results depend on the processing

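Windows of 500 bp or 2 kb left 7 folding genes with POLR1A at an end. An overlap of at least 50% of the shorter peak left 7 with overlapping POLR1A and POLR2A peaks. Lists of equal length (3812 peaks) leave POLR1A uncut. At a −log10 q of at least 5 there were 6, without SDF2L1 (−log10 q 4.99), against 5.36% of all genes. The other ER genes with POLR1A fell to 12 in that setting. With equal lengths H3K4me3 was at the ends of 1 folding gene (CANX), and at the start of 1, against 17.8% and 19.6% of genes. Ranked by −log10 q, the median percentiles were 89.7 (POLR1A), 98.2 (POLR2A) and 78.4 (H3K4me3). Ranked among peaks at gene ends, they were 94.8 for POLR2A and 45.6 for H3K4me3. With a window of 2 kb that of H3K4me3 was 61.1. The median summit distance was 64.5 bp at a −log10 q of at least 5, with 6 genes. The cause of these shifts was not tested, except that fewer peaks were counted in the settings with a q limit or equal length. Among the other 45 recomputed values, the counts stayed within 1.5 times the count or inside the counting interval. The percentiles and the summit distance among them were unchanged or nearly so. With 1 list per target no replicate could be left out. No paired analysis was possible because the lists name no replicate. Depth is unknown, so a missing POLR1A peak at PDIA3, PDIA6 or CANX means only that none was listed.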
